A study of Oryza sativa with 6 samples.

Results

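The loci described here are those whose transcripts were most abundant in L-type lateral roots in both IR29 and Mulai, 2 cultivars of rice (Oryza sativa). There are 81 of them among the 38042 loci of the deposited table. In each cultivar 3 root types were sampled: L-type lateral roots, S-type lateral roots and nodal roots. IR29 is labelled as salinity sensitive and Mulai as salinity tolerant. The labels name no salt treatment, plant age or genetic modification for any group, and they do not say whether a library came from 1 plant or a pool. Each cultivar and root type had 1 strand-specific mRNA library, 6 in all, so that no group has a replicate, and the labels refer the libraries of each cultivar to a separate earlier set of records.

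Nodal roots emerge from the nodes of the stem and form the axes of the rice root system. They carry lateral roots of distinct kinds. L-type laterals are longer and thicker and branch again, while S-type laterals are short and thin and do not branch. L-type laterals thus share branching with the nodal axes and lateral origin with the S-type roots. The labelled root types could not be checked against marker genes, since no locus in the table carries a gene name. The values come from whole tissue, where fewer cells of a type and less RNA per cell cannot be told apart.

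The members were chosen by their measured values. After 1 was added to every scaled fragment count, the L-type value had to be at least 1.5 times both the S-type and the nodal value in IR29 and in Mulai. Each L-type library needed a scaled count of at least 30. The IR29 over Mulai ratio in nodal roots had to lie within 3-fold, and loci were left out where the S-type over nodal fold was 2-fold or more in opposite directions in the cultivars, or 16-fold or more in the same direction in both. The fold and the minimum were met by 93 loci. The nodal limit removed 10 of them, the limit on same-direction folds removed 2, and the limit on opposite folds removed 0. The L-type folds of the members are therefore a description and support nothing further.

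Libraries held between 3891153 reads (IR29 L-type) and 7904454 reads (Mulai nodal), and every IR29 library was shallower than every Mulai library. The members took 0.504% of the reads in the IR29 L-type library, against 0.162% in IR29 S-type and 0.168% in IR29 nodal roots. In Mulai they took 0.345% of L-type reads, against 0.1025% of S-type and 0.171% of nodal reads. Most members were modest in count. The median member had 141 reads in the IR29 L-type library, against 32 in IR29 S-type and 36 in IR29 nodal roots. It had 123 reads in Mulai L-type roots, against 39 in S-type and 79 in nodal roots. Counts are not divided by transcript length, so levels are compared between libraries and not between loci.

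A peak in L-type roots that met the same fold and minimum was found in 1887 loci in IR29 and in 654 loci in Mulai. The 93 loci found in both were 4.93% of the IR29 list and 14.2% of the Mulai list. With the same fold and minimum, 1457 loci peaked in S-type roots in both cultivars. These were 41.3% of the 3529 loci listed in IR29 and 45.2% of the 3224 listed in Mulai. For nodal roots 1509 loci did so, 48.3% of the 3124 loci listed in IR29 and 62.7% of the 2406 listed in Mulai. The lists differed in length, from 654 to 3529 of the 38042 loci. A longer list in the other cultivar leaves more room for shared loci, and the shares were not adjusted for it. Of the 1887 L-type loci listed in IR29, 1342 reached the minimum in Mulai L-type roots. Of the 654 listed in Mulai, 433 reached it in IR29 L-type roots. These shares come from 1 library per cultivar and root type and were not tested.

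What the L-type peaks of one cultivar did in the other cultivar was then followed among loci with a scaled count of at least 30 in both L-type libraries, 12866 in all. Of the 1342 such loci that peaked in L-type roots of IR29, 93 (6.93%) also peaked there in Mulai, where 3.37% of the 12866 loci did. Their highest Mulai value was in the L-type library for 447 loci (33.3%, against 18.8% of the 12866 loci), in the S-type library for 555 (41.4%, against 45.3%) and in the nodal library for 340 (25.3%, against 35.8%). Of the 433 such loci that peaked in L-type roots of Mulai, 93 (21.5%) also peaked there in IR29, where 10.4% of the 12866 loci did. Their highest IR29 value was in the L-type library for 148 loci (34.2%, against 33.2%), in the S-type library for 248 (57.3%, against 34.6%) and in the nodal library for 37 (8.54%, against 32.2%). These differences from the 12866 loci were not tested.

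Among the 81 members, the median fold of L-type over S-type roots was 2.44 in IR29 and 2.88 in Mulai, and the median fold of L-type over nodal roots was 2.91 in IR29 and 1.94 in Mulai. The smallest of a member's 4 folds had a median of 1.75 and reached 11.7. For 20 members all 4 folds were at least 2, for 8 at least 3 and for 2 at least 4. The smallest fold was that over nodal roots in Mulai for 42 members, that over S-type roots in IR29 for 17, that over S-type roots in Mulai for 13 and that over nodal roots in IR29 for 9. The L-type library held a median of 56.4% of a member's summed scaled count over the 3 root types in IR29 (range 44.0 to 88.8%) and 53.7% in Mulai (43.8 to 95.3%).

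**Figure D1:**
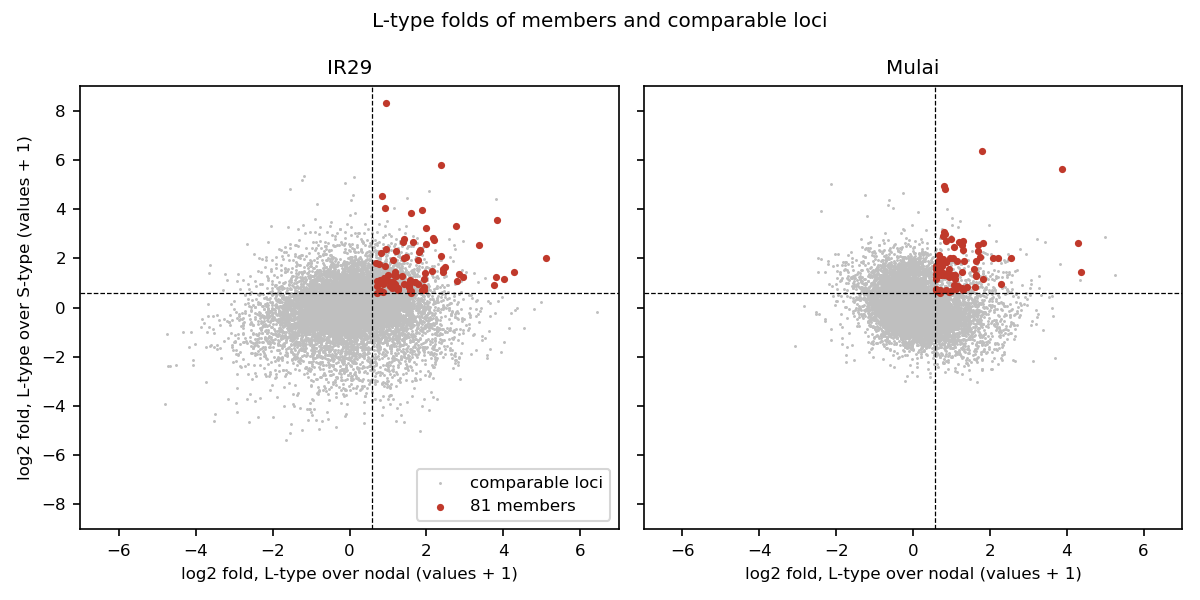
Each point is 1 locus, with the log2 fold of L-type over nodal roots on the x axis and of L-type over S-type roots on the y axis (values + 1), for IR29 (left) and Mulai (right). Red points are the 81 members, grey points the 12393 comparable loci that met the limits of the rule other than the L-type fold, and dashed lines mark 1.5-fold; the members sit above both lines because the rule placed them there.

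The counting error of each fold was taken from the reads, as an exact 95% interval of the ratio of scaled counts. For 77 of the 81 members the lower ends of all 4 L-type ratios were above 1. Another 3 members had 3 such lower ends, and 1 member had 2. These intervals cover counting error only, and contain no variation between plants or library preparations. The rule had chosen the members on the same values, so the counts of lower ends above 1 are a description. The members nearest to the fold threshold had smallest folds of 1.51 and 1.51, and the nearest loci outside it had 1.49 and 1.49. The lowest L-type value of a member was 30.8, the highest smaller L-type value kept out by the minimum was 29.9, and the minimum alone kept out 173 loci. The largest nodal ratio inside was 2.78 and the smallest outside was 3.27.

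A linear model with terms for cultivar and for root type was run in limma on the log2 values of all 20316 loci with sufficient counts, which included all 81 members. In that model 0 members were called between L-type and nodal roots at an adjusted p under 0.05, where 0.0591% of all tested loci were called. At an unadjusted p under 0.05 there were 52 members, against 19.2% of all loci. Between L-type and S-type roots 0 members were called, where 0% of all tested loci were called, with 62 members at an unadjusted p under 0.05, against 18.7% of all loci. The smallest adjusted p of a member was 0.0505 against nodal and 0.0896 against S-type roots. The quasi-likelihood test of edgeR on recovered reads also called 0 members in both comparisons, where 0% of all tested loci were called. Against nodal roots it had 53 members at an unadjusted p under 0.05, with 3669 of all 20316 loci. Against S-type roots it had 66 members, with 3425 of all 20316 loci. DESeq2 called 17 members against nodal roots, where 6.39% of all loci were called, and 23 against S-type roots, where 5.08% were called, each of them higher in L-type roots. Against nodal roots limma called 5 members without the IR29 S-type library (3.51% of all loci), 3 without the Mulai L-type library (4.99%) and 6 without the Mulai S-type library (3.17%). Against S-type roots it called 1 without the IR29 S-type library (0.0403% of all loci), 3 without the Mulai L-type library (1.96%) and 1 without the Mulai S-type library (0.0401%). The rule had used both contrasts, so nothing is read from these counts. The model leaves 2 residual degrees of freedom, and the members are defined by the size of their folds, not by a test across replicates.

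The pattern is shown by the 2 members with the largest smallest fold at a mean scaled count of at least 100. XLOC_030686 had a scaled count of 378 in IR29 L-type roots (323 reads), against 88.7 in IR29 S-type and 71.5 in IR29 nodal roots. In Mulai it had 336 in L-type roots (393 reads), against 65.9 in S-type and 135 in nodal roots. Both L-type libraries were higher than all 4 other libraries. The L-type over S-type ratio was 4.26 in IR29 (95% counting interval 3.22 to 5.73) and 5.10 in Mulai (3.97 to 6.63), and the L-type over nodal ratio was 5.29 in IR29 (4.02 to 7.06) and 2.48 in Mulai (2.10 to 2.94).

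XLOC_021430 had 396 in IR29 L-type roots, against 143 in S-type and 175 in nodal roots, and 357 in Mulai L-type roots, against 97.0 in S-type and 141 in nodal roots. Both L-type libraries again exceeded the other 4, and the cultivars lay close together in each root type. The lowest of its 4 L-type ratios was 2.26, over nodal roots in IR29 (1.86 to 2.75), and the highest was 3.69, over S-type roots in Mulai (2.98 to 4.59).

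The member with the largest smallest fold of all was a rare transcript. It had 63.2 in IR29 L-type roots (54 reads), against 4.51 (3 reads) in S-type and 3.46 (3 reads) in nodal roots. In Mulai it had 48.7 in L-type roots (57 reads), against no read in S-type and 2.40 (4 reads) in nodal roots. It was thus close to absent outside L-type roots in both cultivars. With the empty Mulai S-type library set to a floor of 3 reads, the transcript was 18.3-fold higher in Mulai L-type than in S-type roots. With no read in that library, the lower end of the 95% counting interval of the ratio was 14.4. In IR29 the ratio of L-type to S-type counts of the transcript was 14.02 (4.55 to 70.1).

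**Figure D2:**
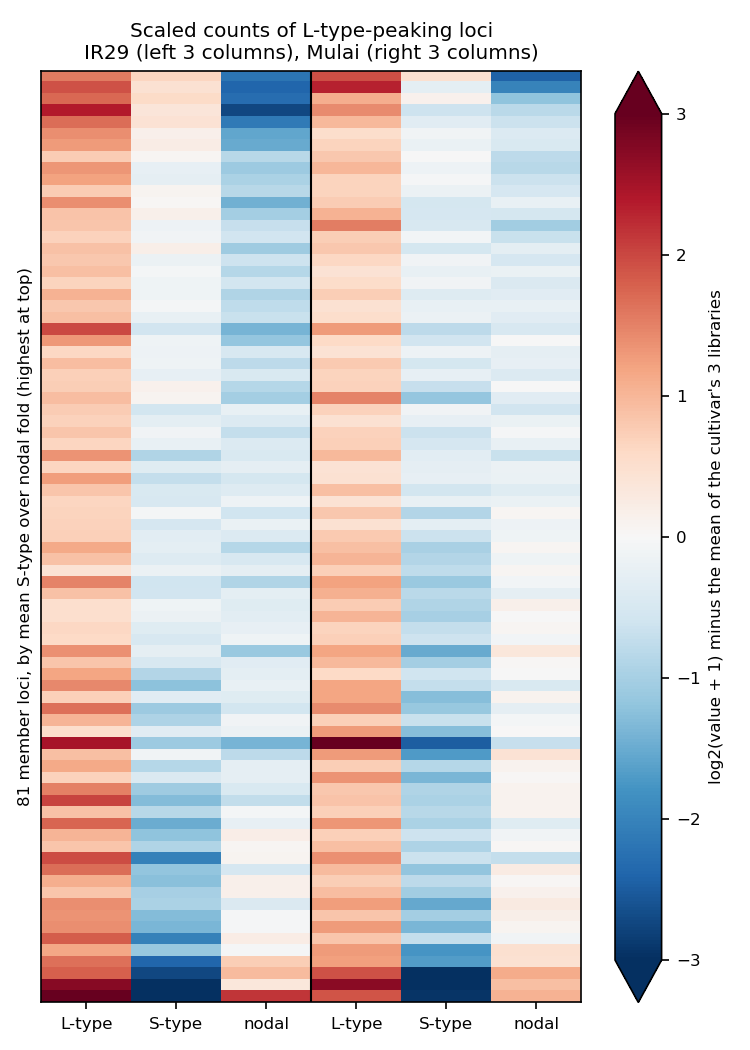
Rows are the 81 members, ordered by their mean S-type over nodal fold, and columns are the 6 libraries, with IR29 on the left and Mulai on the right. Colour gives log2(value + 1) minus the mean of the 3 libraries of that cultivar; the L-type column is red in every row by the rule, while the S-type and nodal columns change places from the top rows (nodal lowest) to the bottom rows (S-type lowest).

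The rule asked little of the order of S-type and nodal roots below the L-type peak, and the members differed in it. In both cultivars S-type roots were at least 1.5 times nodal roots in 6 members, where 22.8% of the 12393 comparable loci were. Nodal roots were at least 1.5 times S-type roots in both cultivars in 17 members, where 20.7% of comparable loci were lower in S-type roots by that fold. In 19 members the S-type and nodal values lay within 1.5-fold in both cultivars. Taken by cultivar, they did so in 44.4% of members in IR29, against 39.8% of comparable loci. In Mulai they did so in 44.4% of members and 44.4% of comparable loci. A further 14 members were higher in S-type roots in IR29 and within 1.5-fold in Mulai, 17 were within 1.5-fold in IR29 and lower in S-type roots in Mulai, and 3 were lower in S-type roots in IR29 and within 1.5-fold in Mulai. The remaining 5 were higher in S-type than nodal roots in IR29 and lower in Mulai, a pattern shown by 0.549% of comparable loci. The reverse was shown by 0 members and by 0.347% of comparable loci. Shares of comparable loci for the classes of 19, 14, 17 and 3 members are not given here. Comparable loci were not required to peak in L-type roots, so all these shares are a description.

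In the limma model 7 of the 81 members changed between S-type and nodal roots, 3 of them higher (log2 change 2.09 to 2.87) and 4 lower (log2 change -5.68 to -2.63) in S-type roots, with adjusted p between 0.0109 and 0.0354. Of all tested loci 20.7% were called, 10.5% higher and 10.2% lower. edgeR and DESeq2 each called 7 members, 3 higher and 4 lower, where they called 17.9% and 24.3% of all loci. The rule had limited this fold, so the count is a description. Without the IR29 nodal library limma called 0 members (6 at an unadjusted p under 0.05) and 0.37% of all loci. Without the Mulai nodal library it called 0 members (11 at an unadjusted p under 0.05) and 1.8% of all loci, and without the IR29 S-type library 4 members and 8.67% of all loci. The calls were thus fewer among all loci as well as among the members.

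XLOC_017423 was the member with the lowest fitted log2 change of S-type over nodal roots and the lowest such fold in IR29. In Mulai 2 members with fewer reads had a lower fold. It had 794 in IR29 L-type roots (678 reads), against 1.504 in S-type roots (1 read) and 414 in nodal roots. In Mulai it had 857 in L-type roots (1002 reads), against 29.4 in S-type (33 reads) and 478 in nodal roots. The transcript was therefore abundant in L-type and nodal roots of both cultivars and much lower in both S-type libraries. The S-type over nodal log2 change was -5.68 ± 0.86 (SE, adjusted p = 0.0128, limma, 2 libraries per root type, lower in S-type roots in both cultivars). The L-type over S-type ratio was 528 in IR29 (94.4 to 20880) and 29.2 in Mulai (20.6 to 42.6), while over nodal roots L-type was 1.92 times as high in IR29 (1.69 to 2.19) and 1.79 times in Mulai (1.63 to 1.97). Its Mulai log2 fold of S-type over nodal roots, -3.98, lay just inside the 16-fold limit of the rule.

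XLOC_023406 had 209 in IR29 L-type roots, against 13.5 in S-type (9 reads) and 68.0 in nodal roots, and 178 in Mulai L-type roots, against 59.6 in S-type and 92.0 in nodal roots. S-type roots were lowest in both cultivars, by a wider margin in IR29. The S-type over nodal log2 difference was -1.43 ± 0.60 (SE) and did not pass (adjusted p = 0.141, limma). The members with at most 3 reads in both S-type libraries numbered 3. They were the rare transcript described above and another 2 members. The first had 137 in IR29 L-type roots, against 25.4 in IR29 nodal roots, and 80.4 in Mulai L-type roots, against 22.2 in Mulai nodal roots. The second had 56.2 in IR29 L-type roots, against 31.1 in IR29 nodal roots, and 83.8 in Mulai L-type roots, against 47.5 in Mulai nodal roots.

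The reverse order, with nodal roots lowest, was clearest in XLOC_032729 and XLOC_031657, which were picked after their values were seen. They were the members for which the smaller of the S-type over nodal folds of IR29 and Mulai was largest, and other members had a larger fold in IR29 alone. XLOC_032729 had 184 in IR29 L-type roots, against 96.2 in S-type and 12.7 in nodal roots (11 reads), and 354 in Mulai L-type roots, against 129 in S-type and 16.2 in nodal roots (27 reads). Values stepped down from L-type through S-type to nodal roots in each cultivar. The S-type over nodal log2 change was 2.87 ± 0.39 (SE, adjusted p = 0.0109, limma). The L-type over nodal log2 difference was 4.06 ± 0.39 (SE, adjusted p = 0.0505, limma), the smallest adjusted p of any member in that comparison. The rule had used the L-type over nodal fold, so nothing is read from that p-value. XLOC_031657 had 221 in IR29 L-type roots, against 79.7 in S-type and 10.4 in nodal roots (9 reads), and 173 in Mulai L-type roots, against 27.6 in S-type and 7.81 in nodal roots (13 reads). It followed the same order, with a wider gap between L-type and S-type roots in Mulai. Its S-type over nodal log2 change was 2.26 ± 0.51 (SE, adjusted p = 0.031, limma).

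**Figure D3:**
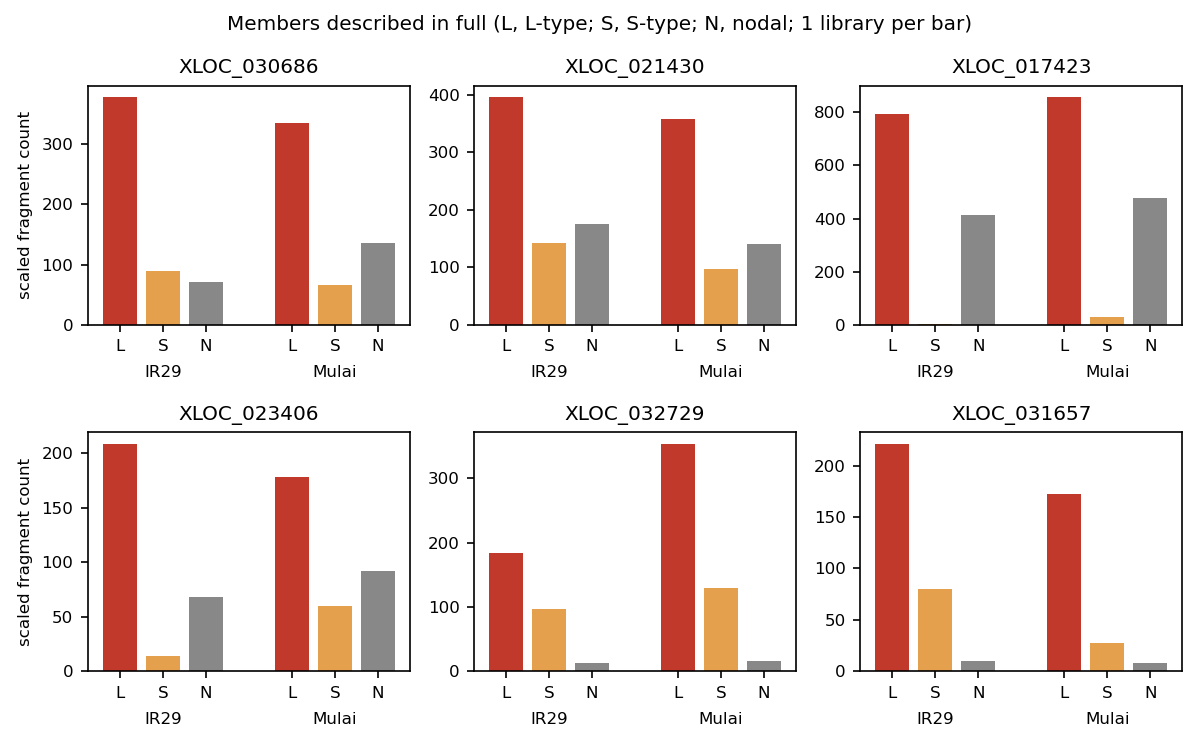
Bars give the scaled fragment count of the 6 members named by identifier in each library (L, L-type; S, S-type; N, nodal), with IR29 on the left and Mulai on the right of each panel and 1 library per bar, so no error bar is drawn. The L-type bar is highest in each cultivar in every panel. S-type roots are lowest in both cultivars for XLOC_017423 (1.504 in IR29 and 29.4 in Mulai). Nodal roots are lowest in both cultivars for XLOC_032729 (12.7 in IR29 and 16.2 in Mulai) and XLOC_031657 (10.4 in IR29 and 7.81 in Mulai).

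The order of S-type and nodal roots also differed between the cultivars. In IR29 the median log2 fold of S-type over nodal roots was 0.10 over the members and 0.02 over the comparable loci. In Mulai it was -0.53 over the members and 0.09 over the comparable loci. S-type roots were at least 1.5 times nodal roots in 25 members in IR29 (30.9%, against 30.5% of comparable loci) and in 6 in Mulai (7.41%, against 30.0%). They were at least 1.5 times below nodal roots in 20 members in IR29 (24.7%, against 29.7%) and in 39 in Mulai (48.1%, against 25.6%). The IR29 members thus had S-type and nodal levels in shares near those of comparable loci, while in Mulai S-type roots were more often the lowest. The fold was larger in IR29 than in Mulai for 61 of 81 members (75.3%), against 46.3% of comparable loci. The rule held the S-type and nodal values of a member below its L-type value. It did not ask this of the comparable loci, so these shares are a description. With 1 library per cultivar and root type the difference between the cultivars was not tested.

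Across the 81 members the S-type over nodal folds of IR29 and Mulai correlated with Pearson's r = 0.725 and Spearman's rho = 0.549. The L-type over S-type folds gave r = 0.697 and rho = 0.491, and the L-type over nodal folds r = 0.659 and rho = 0.493. These are descriptions over loci that share the same 6 libraries and were selected on these folds.

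**Figure D4:**
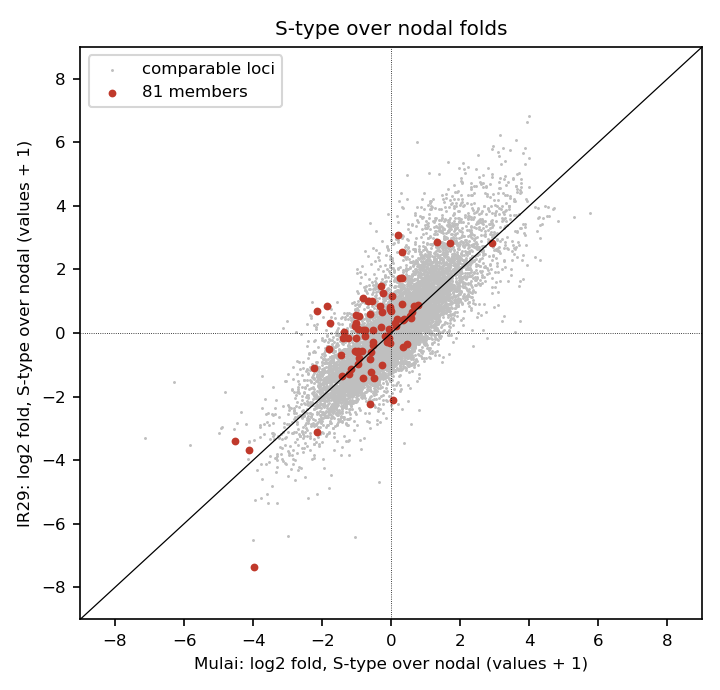
Each point is 1 locus, with the log2 fold of S-type over nodal roots in Mulai on the x axis and in IR29 on the y axis (values + 1). Red points are the 81 members, grey points the 12393 comparable loci, and the line marks equal folds; 61 of the 81 members lie above the line.

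The cultivars were compared last. The rule held the nodal values of the cultivars within 3-fold but set no such limit in the lateral roots. It did use the L-type, S-type and nodal values of each cultivar to choose the members. It asked no L-type fold of the comparable loci, so the cultivar differences below are a description. The median log2 fold of IR29 over Mulai over the members was 0.53 in L-type roots, 0.57 in S-type roots and -0.06 in nodal roots. Over the comparable loci it was 0.10, 0.00 and 0.03 in the same order of root types. In L-type roots 65 members were higher and 16 lower in IR29 than in Mulai (80.2% higher, against 55.8% of comparable loci). In S-type roots these numbers were also 65 and 16 (80.2% higher, against 50.02%), and in nodal roots 38 and 43 (46.9% higher, against 53.0%).

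At least 2-fold higher in IR29 were 19 members in L-type roots (23.5%, against 10.8% of comparable loci), 27 in S-type roots (33.3%, against 8.51%) and 5 in nodal roots (6.17%, against 2.26%). At least 2-fold lower in IR29 were 2 members in L-type roots (2.47%, against 11.8%), 4 in S-type roots (4.94%, against 5.68%) and 5 in nodal roots (6.17%, against 3.11%). The members were thus more often 2-fold higher than 2-fold lower in IR29 in both kinds of lateral root, and equally often in nodal roots. Of the 19 members at least 2-fold higher in IR29 L-type roots, 5 had a scaled count of at least 100 in both L-type libraries. In the limma model of all root types 0 members differed between IR29 and Mulai, where 7.38% of all tested loci were called. At an unadjusted p under 0.05 there were 18 members, against 20.3% of all loci. edgeR called 0 members and DESeq2 2, where they called 5.38% and 10% of all loci. Without the IR29 nodal library limma called 1 member and 5.3% of all loci, and without the Mulai nodal library 1 member and 5.7% of all loci. Cultivar and the earlier set of records to which the libraries belong cannot be told apart.

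**Figure D5:**
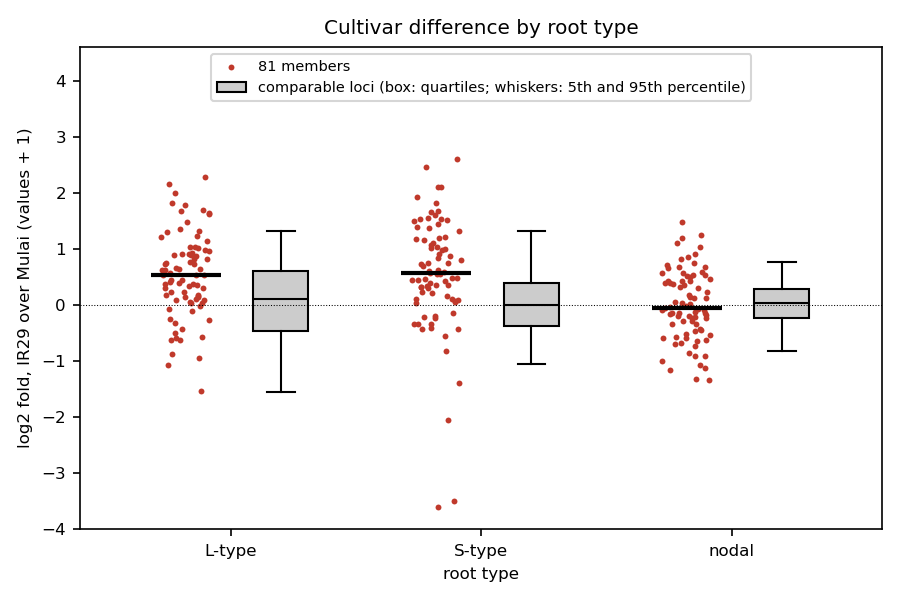
The y axis is the log2 fold of IR29 over Mulai (values + 1) in L-type, S-type and nodal roots. Red points are the 81 members with their median as a black bar, and grey boxes are the 12393 comparable loci; the medians of the members are 0.53 in L-type, 0.57 in S-type and -0.06 in nodal roots.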

How the data were processed

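The authors deposited 1 table with a signal per locus and library: scaled fragment counts, per the file headers and the values. The submitters' processing notes name the trimmer Trimmomatic 0.32, the aligners Bowtie and TopHat2 2.0.11, the programs Cufflinks 2.2.1 and Cuffdiff 2.2.1, and build IRGSP-1.0. The settings, the annotation and the treatment of reads that fit several loci are not stated there. The table's other 24 columns (variances and status flags) were left aside. A search of the 39387 RefSeq genes for the 38042 identifiers found 0 matches, so no gene name, sequence or coordinate is given.

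Dividing each library by 1 step gave whole reads for 100% of its values above 0, within 0.1 of a read. Using limma 3.58.1 (R 4.3.3, moderated variances with a trend), log2(value + 1) was modelled with cultivar and root type as terms, for loci that reached 10 in at least 2 libraries. The p-values were adjusted by Benjamini and Hochberg over all 20316 loci. Differences on this scale understate the change of low loci. The labels name no separate plants, and the p-values reflect only how these libraries varied. On the recovered reads, edgeR 4.0.16 called 0 loci for L-type against nodal, 0 for L-type against S-type, 3630 for S-type against nodal and 1092 for IR29 against Mulai. DESeq2 1.42.0 called 1298, 1033, 4935 and 2031 in the same order. The limma procedure was tested on simulated data.

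Comparable loci are the 12393 with at least 30 in both L-type libraries and inside the nodal and S-type over nodal limits of the rule; they include the members. Members and comparisons were chosen with earlier results of these data known. Of the members given by identifier, 2 have the largest smallest L-type fold and 2 the lowest S-type over nodal fold (larger of the cultivars), at a mean value of at least 100; another 2 were added after the values were seen. The alternatives tried were other tests, scalings, pseudocounts, filters and folds, thinned reads, and leaving out each library.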

Additional observations from a re-analysis of the deposited data

Results flagged for a closer look

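The S-type over nodal fold ran in opposite directions in the cultivars for 5 members, which were at least 1.5 times higher in S-type than in nodal roots in IR29 (log2 fold 0.61 to 1.09) and at least 1.5 times lower in Mulai (log2 fold -2.15 to -0.61). The reverse was found in 0 members. Of the comparable loci, 0.549% showed the first pattern and 0.347% the second. The member with the fewest reads had 25 in S-type and 20 in nodal roots of IR29, and 6 and 45 in Mulai. With 1 library behind each value, the difference was not tested. The rule had already left out loci with opposite folds of 2 or more in both cultivars.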

How the results depend on the processing

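Some members had very few reads outside L-type roots. At most 3 reads were found for 5 members in IR29 S-type and 3 in Mulai S-type roots. The number was 1 in IR29 nodal and 0 in Mulai nodal roots. The number of members (81) was 222 with a fold of 5/4, 20 with a fold of 2, 124 with a minimum of 10, 38 with a minimum of 100, 1887 with the IR29 libraries alone and 654 with the Mulai libraries alone, as the construction of these rules leads to. Without the nodal limit it was 90, and with TMM scaling 90, of which 80 were among the 81. Reads thinned to the smallest total, with 20 draws, of which 19 were added after the data were seen, gave 69 to 94 members, of which 59 to 71 were among the 81. Members called between L-type and nodal roots (0) numbered 17 with DESeq2, where 6.39% of all loci were called. They numbered 2 with a pseudocount of 5, where 82 of 20316 loci were called. Without a filter they numbered 3, where 130 of 28917 loci were called. Between L-type and S-type roots (0) they numbered 23 with DESeq2 (5.08% of all loci) and 1 without a filter (20 of 28917 loci). Between IR29 and Mulai (0) they numbered 2 with DESeq2 (10% of all loci) and 1 without a filter (1975 of 28917 loci). Counts other than 0 when 1 library was left out are given above with each of these comparisons. Between S-type and nodal roots (7) leaving out each library gave 0 to 8. A fit without 1 library leaves a lone library in a root type, assumed to vary like the others. With at least 100 in both L-type libraries, 3 members in place of 6 had S-type above nodal roots in both cultivars and 2 in place of 17 below; 5 in place of 19 were 2-fold higher in IR29 L-type roots and 0 in place of 2 were 2-fold lower. The last number was 1 among members with all 4 lower counting bounds above 1, a subset chosen after the data were seen. The causes of these shifts were not tested. The other values stayed within 1.5 times (74 of 103 alternatives in all). The model's cultivar term already blocks by cultivar. Without it limma called 5 members between S-type and nodal roots in place of 7, where 1589 of 20316 loci were called in place of 4203. In both L-type comparisons it called 0 members and 0 of all loci.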

Other observations

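The identifier numbers of the 81 members ran from 759 to 37743. In 10 equal stretches of the table the number of members lay between 5 and 11. No members had consecutive numbers, and the smallest gap between members was 5. How the numbering follows the genome is not given in the sources used here.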
